A study of Mus musculus with 36 samples.

Results

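Genes of cholesterol synthesis and export were examined in the kidneys of neonatal mice that develop cysts. The 8 genes were chosen by name, out of 20458 gene symbols in the count table, with earlier results of these data known. They are Hmgcs1, Idi1, Fdft1, Sqle, Lss and Dhcr7 (enzymes of sterol synthesis), Insig1 (a sterol sensor) and Abca1 (a cholesterol exporter). For a gene with more than 1 RefSeq transcript in the table, the transcript with the highest mean count was used.

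All animals were C57BL/6 mice that were homozygous for a floxed allele, either Pkd1 f/f or Pkd2 f/f. Knockout animals (KO) additionally carried the HoxB7-Cre transgene and controls (WT), littermates of the same age, did not, so that WT mice also had the floxed alleles. Kidney RNA was sequenced in 3 KO and 3 WT libraries per model at postnatal day 1 (P1), day 3 (P3) and day 7 (P7), which gave 36 libraries in 12 groups. HoxB7-Cre acts in the collecting duct, whereas the libraries came from kidney tissue of all segments. In bulk tissue, fewer cells of a type and less RNA per cell cannot be told apart.

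Library totals ran from 7179152 to 15850818 counts (median 13143336). The deletions take a few exons of each gene in cells with Cre, and counts over whole transcripts therefore gave little check of the labels. At P7, Pkd1 stood at 234 to 294 CPM in Pkd1 KO and 230 to 256 CPM in Pkd1 WT kidneys, and Pkd2 at 261 to 276 CPM in Pkd2 KO and 318 to 335 CPM in Pkd2 WT kidneys. CPM are counts scaled to a library size of 1000000 after TMM normalization. Of the 10 collecting duct markers, Avpr2 and Scnn1b were at 0 in every library and Fxyd4 had a mean count under 10, as did Slc5a12 among the 10 proximal tubule markers. Counts of Y-linked genes were present in 3 of 3 KO and 0 of 3 WT libraries of Pkd1 P7. Genotype and sex cannot be told apart in that comparison. At Pkd2 P7 Y-linked counts were present in 3 of 3 KO and 2 of 3 WT libraries, so genotype and sex are partly mixed there.

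Cells build cholesterol from acetyl-CoA through the mevalonate pathway. Hmgcs1 makes the precursor of mevalonate at the start of the pathway. Idi1 isomerizes the isoprenoid building block, Fdft1 joins farnesyl units into squalene, Sqle oxidizes squalene, Lss closes the ring to lanosterol, and Dhcr7 catalyses the last reduction to cholesterol. When membrane sterol is low, SREBP2 (encoded by Srebf2) is released from the endoplasmic reticulum and switches on these enzymes together. Insig1 holds the SREBP complex back when sterol is plentiful and is itself an SREBP target. Abca1 acts in the opposite direction, moves cholesterol out of cells to apolipoproteins and is induced by LXR receptors when oxysterols build up.

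None of the 8 genes imports cholesterol. Hmgcs1 had almost no counts. Its transcript NM_145942 (chromosome 13, gene at 119690351 to 119708260 of GRCm38.p6) had at most 7 counts in any library and 0 counts in 11 of them, and its other transcript had none. It has several RefSeq transcripts, and genes with several rows had a median mean count of 1.08, against 156.75 for genes with 1 row. Hmgcs1 fell under the count filter in both models, which leaves 7 of the 8 genes for all tests, and its near-absence is not evidence that the enzyme was not expressed. The other 7 genes each have 1 transcript in the table. On GRCm38.p6 these are Idi1 (NM_145360, chromosome 13, 8885606 to 8892396), Fdft1 (NM_010191, chromosome 14, 63145150 to 63181687), Sqle (NM_009270, chromosome 15, 59315092 to 59331193) and Lss (NM_146006, chromosome 10, 76531565 to 76557139). The others are Dhcr7 (NM_007856, chromosome 7, 143823167 to 143848410), Insig1 (NM_153526, chromosome 5, 28071412 to 28078662) and Abca1 (NM_013454, chromosome 4, 53030789 to 53159988).

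Motifs known from sterol regulation were searched on both strands of RefSeq promoter windows (250 bases before to 50 bases after the start, GRCm38.p6), which were found for 6 of the 8 genes. The sterol response element core TCACNCCA was present in 1 of the 6 genes, Hmgcs1, and in 4.97% of all 27025 genes with a window. CCAAT, the box bound by NF-Y, a partner of SREBP, was present in 5 of 6 genes against 41.1% of all genes. GGGCGG, the box bound by Sp1, was present in 6 of 6 genes against 38.2%. The Hmgcs1 element and 1 CCAAT box of each gene that has one are shown, because SREBP is known to act beside NF-Y and because CCAAT was found for the 4 enzymes with a window and Insig1 and not for Abca1. Capitals mark the matched letters, and all are written 5′ to 3′.
Hmgcs1, chr13:119690205-119690230, + strand: gtcaccgtcTCACCCCActtcccagg
Hmgcs1, chr13:119690297-119690319, - strand: cgctttcagCCAATgagaggcgg
Idi1, chr13:8885552-8885574, - strand: ccgggctcgCCAATcagctggag
Lss, chr10:76531534-76531556, - strand: cgagctcggCCAATcagagcatc
Dhcr7, chr7:143830120-143830142, + strand: ctgccttcaCCAATcacaggacg
Insig1, chr5:28071187-28071209, - strand: ccgccggagCCAATgggaggagg
For Dhcr7, which has 3 windows, the box lies in the last of them. A match describes the letters in these windows only, and a gene without one may carry the motif elsewhere.

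Among the 7 measured genes, the squalene oxidase was the most abundant and the exporter the least. Per kilobase of transcript, averaged over 36 libraries, Sqle was highest at 38.6 CPM per kb, followed by Idi1 at 29.9, Insig1 at 25.7, Fdft1 at 23.7, Dhcr7 at 18.7, Lss at 11.8 and Abca1 at 7.10 CPM per kb. Sqle exceeded Idi1 in 34 of 36 libraries and Dhcr7 exceeded Lss in 36 of 36. Insig1 and Fdft1, the neighbours in the middle of the order, were in this order in only 24 of 36 libraries. The group means covered a narrow range. The highest group mean exceeded the lowest by 1.49-fold for Idi1 and Abca1, 1.55-fold for Fdft1 and Lss, 1.65-fold for Dhcr7, 1.82-fold for Sqle and 2.34-fold for Insig1. For Idi1, Sqle, Lss and Insig1 the lowest group was Pkd1 KO at P7 and the highest was a P1 group. For Idi1 this lowest mean (74.3 CPM) was close to that of Pkd1 WT at P7 (74.7 CPM). The plot of levels by library shows these values and the few libraries that leave their group.

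**Figure D1:**
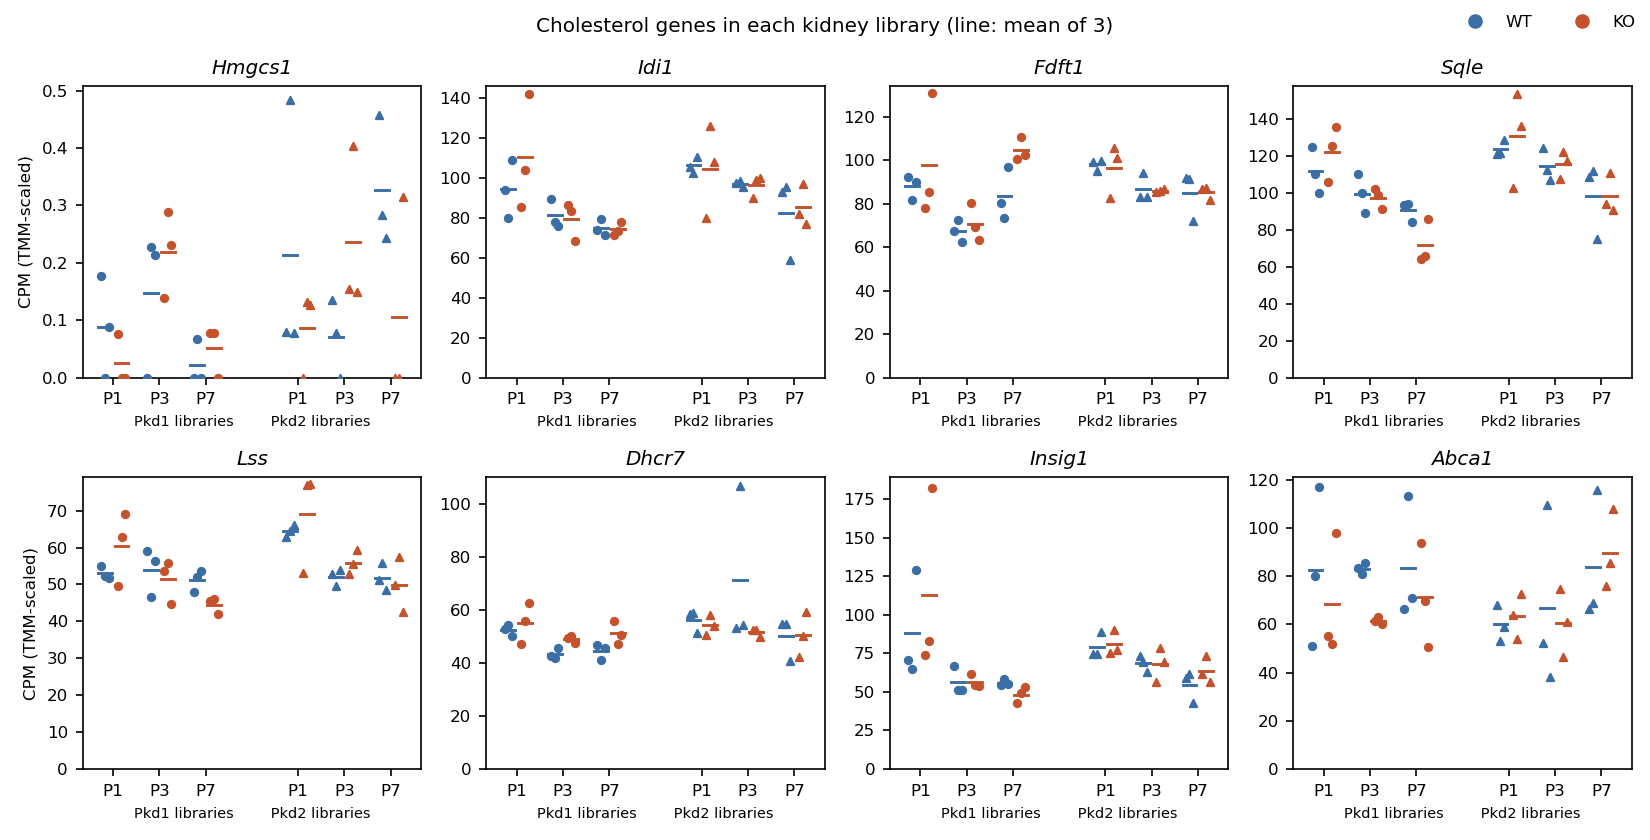
Level of each gene in CPM (TMM-scaled, vertical axis, starting at 0) in 36 kidney libraries, by model and day. Circles are Pkd1 and triangles Pkd2 libraries, blue is WT and red is KO, and each line is the mean of 3 libraries. Hmgcs1 stays under 0.5 CPM, and the high Dhcr7 point at 107 CPM is a Pkd2 WT library of P3.

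Adrenal gland markers were high in 3 libraries. These stayed in the main fits and were left out only in alternative ones. The summed level of 13 adrenal gland markers (Star, Cyp11a1, Cyp21a1, Chga and others) was between 31.5 and 114 CPM in 33 libraries. It was 7772 CPM in Pkd2 WT P3 replicate 2, 2800.2 CPM in Pkd1 KO P7 replicate 1 and 2008 CPM in Pkd2 KO P7 replicate 3. Star, the protein that feeds cholesterol into steroid synthesis, reached 1010.3 CPM in the first of these, against 7.37 to 15.3 CPM in the 33 others.

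In these libraries Dhcr7 and Abca1 were raised in all 3. In Pkd2 WT P3 replicate 2, Dhcr7 was at 107 CPM while the other replicates had 53.4 and 54.4 CPM. Abca1 was at 109.6 CPM there, against 52.4 and 38.3 CPM. The other 5 genes lay within 0.931 to 1.13 times the mean of their fellow replicates in that library. In Pkd1 KO P7 replicate 1, Abca1 was 1.56 times and Dhcr7 1.14 times the mean of the other replicates, and in Pkd2 KO P7 replicate 3 the ratios were 1.34 and 1.28. The other 5 genes had ratios of 0.838 (Insig1) to 1.03 (Lss) in the former and 0.791 (Lss) to 0.939 (Fdft1) in the latter, so that single genes deviated about as far as Dhcr7. Liver markers were high in 1 further library, Pkd2 KO P3 replicate 3, with 2689 CPM against 28.2 to 329 CPM elsewhere. Its Abca1 and Dhcr7 showed no such rise, with 61.0 CPM for Abca1 and 49.7 CPM for Dhcr7 against 46.6 to 74.7 and 52.5 to 52.6 CPM in its group. It was the highest of its group for Lss (59.4 CPM against 52.9 and 55.5), Idi1 (99.8 CPM against 90.0 and 98.7) and Fdft1 (86.8 CPM against 85.5 and 85.9). Sqle and Insig1 lay in between. Without the 3 libraries, the highest group mean exceeded the lowest by 1.30-fold for Dhcr7 and 1.84-fold for Abca1, against 1.65-fold and 1.49-fold with them.

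**Figure D2:**
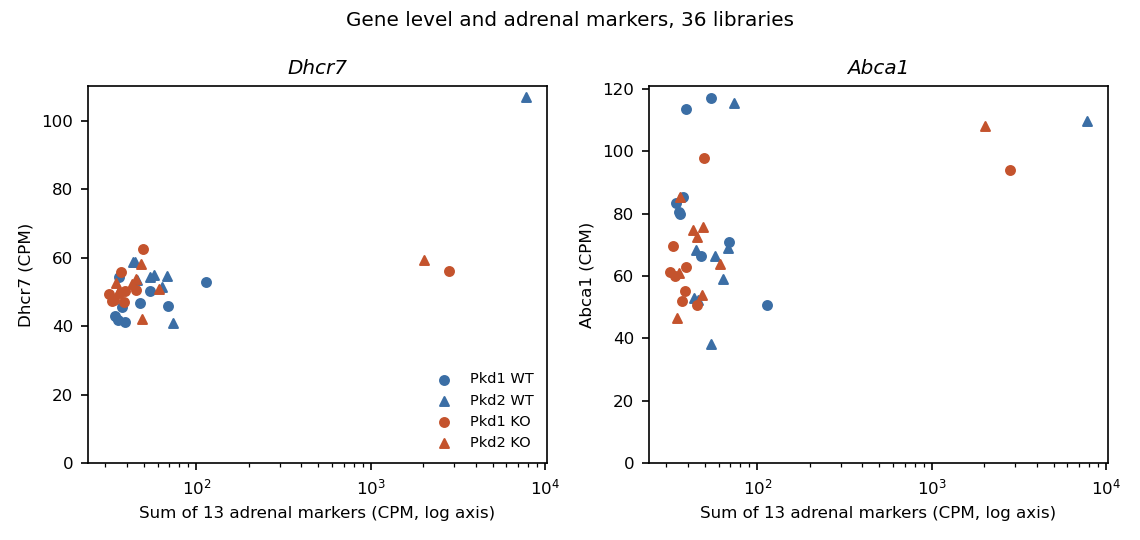
Dhcr7 (left) and Abca1 (right) in CPM against the summed CPM of 13 adrenal markers (log axis) in 36 libraries. The 3 libraries above 1000 CPM of markers lie apart on the right, and the one at 7772 CPM holds the highest Dhcr7 value of all libraries.

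The central comparison asked whether loss of Pkd1 or Pkd2 was accompanied by altered sterol gene expression at P7, the latest age. edgeR's quasi-likelihood test called 0 of the 7 genes in each model (threshold 0.05 on the adjusted p), beside 13.7% of 12527 transcripts in Pkd1 and 13.9% of 12633 in Pkd2. Those shares correspond to about 1 gene in 7. At an unadjusted p under 0.05 there were 2 of the 7 genes in Pkd1 (Fdft1 and Sqle), beside 33.6% of transcripts, and 0 in Pkd2, beside 29.6%. DESeq2 also called 0 in both. The absence of a call is no proof that levels were equal, and the intervals give what the data allow.

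Fdft1, the first enzyme committed to sterols, was higher in Pkd1 KO kidneys at P7 by its values, without passing the test. The KO libraries had 100.5, 111 and 102 CPM, and the WT libraries 80.3, 73.3 and 96.7 CPM. All KO values lay above all WT values. The log2 fold change was 0.33 (standard error 0.13, 95% interval 0.029 to 0.62, edgeR's adjusted p = 0.12). Without Pkd1 WT replicate 3, the highest WT library, it rose to 0.45 with an edgeR adjusted p of 0.026, and without KO replicate 1, the adrenal-marker library, it was 0.35 (edgeR's adjusted p = 0.20). In Pkd2 the KO libraries had 87.0, 87.3 and 81.8 CPM and the WT libraries 91.8, 91.5 and 72.1 CPM, and the log2 fold change was 0.0036 (95% interval -0.23 to 0.23), or 0.033 without KO replicate 3, the adrenal-marker library.

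Sqle, which oxidizes squalene in a rate-limiting step, had lower values in Pkd1 KO, again without passing. The KO libraries had 64.2, 65.9 and 86.2 CPM, and the WT libraries 93.5, 94.3 and 84.3 CPM. The groups overlapped through KO replicate 3 and WT replicate 3. The log2 fold change was -0.33 (standard error 0.14, 95% interval -0.65 to -0.012, edgeR's adjusted p = 0.14), and it was -0.25 without KO replicate 1, the adrenal-marker library. In Pkd2 Sqle was at 94.2, 111 and 91.0 CPM in KO and 109, 112 and 75.0 CPM in WT libraries, with a log2 fold change of 0.0015 (95% interval -0.35 to 0.35), or 0.056 without KO replicate 3.

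In Pkd1, the remaining enzymes and Insig1 had smaller differences at P7 than Fdft1 and Sqle. There Lss had 45.6, 46.0 and 42.1 CPM in KO and 48.0, 52.0 and 53.8 CPM in WT libraries, and Insig1 had 42.7, 49.1 and 52.9 CPM against 54.3, 58.6 and 54.8 CPM. Both were lower in every KO library than in any WT library. Dhcr7 was higher in every KO library, with 56.1, 47.4 and 50.6 CPM against 46.9, 41.3 and 45.8 CPM. With Fdft1 these made 4 of 7 genes whose KO and WT values did not overlap (2 above and 2 below), beside 38.7% of all transcripts in that comparison. In Pkd2 the groups overlapped for 7 of 7 genes, beside 35.1% of transcripts without overlap. The log2 fold changes in Pkd1 were -0.20 for Lss (95% interval -0.46 to 0.060), -0.21 for Insig1 (-0.49 to 0.068) and 0.20 for Dhcr7 (-0.080 to 0.48). Without the adrenal-marker library, Dhcr7 had 0.13, Lss -0.22 and Insig1 -0.13. In Pkd2 the log2 fold change of Dhcr7 was 0.013 with and -0.12 without its adrenal-marker library, KO replicate 3, that of Lss -0.057 with and 0.047 without it, and that of Insig1 0.23 (-0.12 to 0.58) with and 0.31 without it.

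Idi1 had the smallest log2 fold change of the 7 genes in Pkd1 at P7. It was at 71.4, 73.6 and 77.9 CPM in KO and 73.7, 79.3 and 71.2 CPM in WT libraries, a log2 fold change of -0.0089 (95% interval -0.25 to 0.23), or 0.018 without the adrenal-marker library. In Pkd2 its log2 fold change was 0.050, and 0.12 without KO replicate 3. Abca1 had the widest intervals. It was at 93.8, 69.5 and 50.6 CPM in Pkd1 KO and 66.3, 113 and 70.8 CPM in Pkd1 WT libraries, with a log2 fold change of -0.23 and an interval from -0.83 to 0.38. The highest KO value is the adrenal-marker library, without which the log2 fold change was -0.48. In Pkd2 Abca1 was at 75.8, 85.4 and 108 CPM in KO and 66.5, 68.8 and 115.5 CPM in WT libraries, a log2 fold change of 0.10 (-0.41 to 0.61), or -0.052 without KO replicate 3.

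To narrow the intervals, the mean of the KO effects of the 2 models was estimated in 1 fit of all 36 libraries, a fit added after the data were seen. At P7, 39.5% of 12343 transcripts were called in this fit, and again 0 of the 7 genes, with 0 also at an unadjusted p under 0.05 and by DESeq2. For the 5 enzymes and Insig1, every 95% interval lay between 0.782-fold and 1.29-fold, bounds that were set by Sqle and Fdft1. For Abca1 the interval was 0.703-fold to 1.32-fold. In this fit with all libraries, a mean KO effect of 1.3-fold or more in either direction was therefore outside the interval for the 5 enzymes and Insig1. The log2 estimate of Sqle was -0.15 in it, and reached -0.26 in alternative fits. In the Pkd1 part of this mean, sex and genotype cannot be told apart at P7. The number of genes called became 1 without Pkd1 WT P7 replicate 3 (Fdft1, log2 fold change 0.24, edgeR's adjusted p = 0.047) and 1 without Pkd2 WT P7 replicate 3 (Sqle, -0.23, edgeR's adjusted p = 0.049). It remained 0 without the adrenal-marker libraries, where Dhcr7 was at 0.018 in place of 0.12, Abca1 at -0.26 in place of -0.052, Insig1 at 0.099 in place of 0.020 and Idi1 at 0.078 in place of 0.032.

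**Figure D3:**
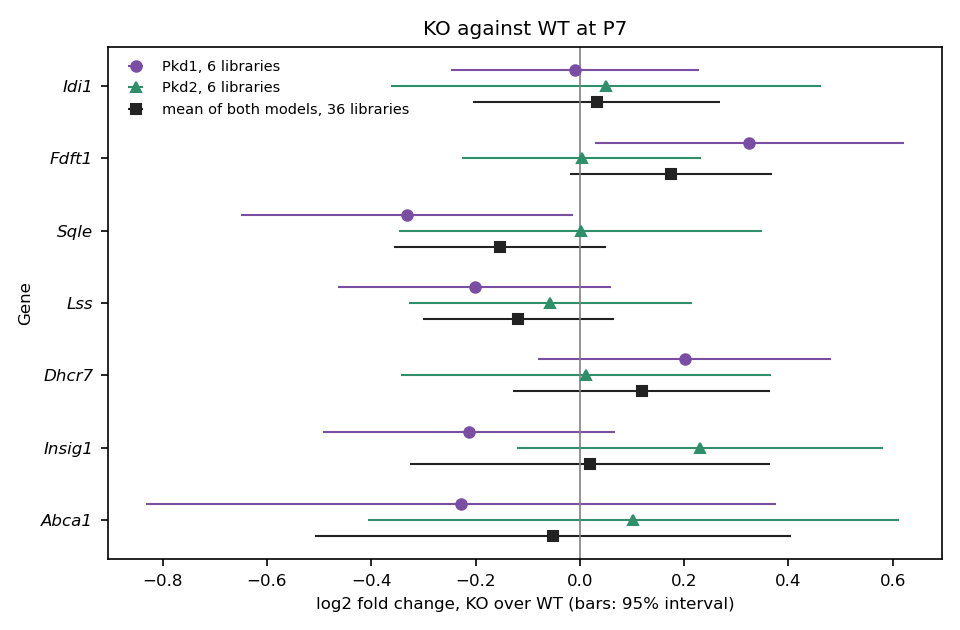
Log2 fold change of KO over WT at P7 for the 7 measured genes, with 95% intervals as bars, in Pkd1 (circles), Pkd2 (triangles) and as the mean of both models (squares). The Pkd2 and mean intervals all span 0, and in Pkd1 those of Fdft1 (0.029 to 0.62) and Sqle (-0.65 to -0.012) do not.

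Summed levels of some cell type markers lay apart between the same groups in both models. The sum of 10 collecting duct markers was 529 to 713 CPM in Pkd1 KO and 1372 to 1530 CPM in Pkd1 WT kidneys at P7, and 756 to 880.2 against 1418 to 1678 CPM in Pkd2. The sum of 10 proximal tubule markers was 1854 to 3602 against 5776 to 7850 CPM in Pkd1 and 3814 to 4298 against 6377 to 8286 CPM in Pkd2. The sum of 8 macrophage and leukocyte markers, among which Itgam was at 0 in every library and Ptprc had a mean count under 10, was higher in KO, with 342 to 411 against 211 to 304 CPM in Pkd1 and 346 to 461 against 218 to 256 CPM in Pkd2. The sum of 6 fibroblast markers overlapped in Pkd1 (4623 to 5723 CPM in KO, 4730 to 6472 CPM in WT). In Pkd2 it was higher in KO (5954 to 7654 against 5413 to 5639 CPM). Adipocyte and liver sums also overlapped in Pkd1 and lay apart in Pkd2, lower in KO. The part of these cell types in the values of the sterol genes was not tested.

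At P1 and P3 no gene was called by edgeR in either model, beside 0% of transcripts at P1 and 0.00798% at P3 in Pkd1, and 0% at both days in Pkd2. An unadjusted p under 0.05 was reached by 2 of 7 genes in Pkd1 at P3 (Abca1 and Dhcr7), beside 14.1% of transcripts, and by 0 in the other 3 comparisons, beside 1.28% to 5.6%. DESeq2 called Abca1 in Pkd1 at P3 only. The shares above are of edgeR's tests, and the share of all transcripts that DESeq2 called is not given. KO and WT values overlapped for 7 of 7 genes at P1 in both models, beside 5.73% of transcripts without overlap in Pkd1 and 11.3% in Pkd2. Abca1 in Pkd1 at P3 came closest to a call. It was at 61.4, 62.9 and 60.1 CPM in KO and 83.4, 80.7 and 85.4 CPM in WT libraries. The replicates were tightly grouped and the genotypes did not overlap. The log2 fold change was -0.44 (standard error 0.062, 95% interval -0.58 to -0.29), and edgeR gave an unadjusted p of 7.4e-05 and an adjusted p of 0.15.

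The Abca1 difference depended on the fit. DESeq2 gave it an adjusted p of 0.00083. With GC content and length offsets it was -0.20 (edgeR's adjusted p = 0.59), and in the fit of all 18 Pkd1 libraries edgeR's adjusted p was 0.87. In Pkd2 at P3 Abca1 had 74.7, 46.6 and 61.0 CPM in KO and 52.4, 109.6 and 38.3 CPM in WT libraries. The log2 fold change there was -0.14 (95% interval -1.04 to 0.77), and it was 0.42 without the adrenal-marker library.

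Dhcr7 values at P3 lay on opposite sides in the 2 models, and neither difference passed. In Pkd1 it was at 49.5, 50.2 and 47.8 CPM in KO and 42.9, 41.8 and 45.7 CPM in WT libraries, a log2 fold change of 0.18 (95% interval 0.010 to 0.35, edgeR's adjusted p = 0.33). All KO values lay above all WT values. Dhcr7 and Abca1 were 2 of 7 genes without overlap in that comparison, beside 21% of all transcripts. In Pkd2 it was at 52.5, 52.6 and 49.7 CPM in KO and 53.4, 107 and 54.4 CPM in WT libraries, a log2 fold change of -0.47 (95% interval -1.10 to 0.16). Dhcr7 was the 1 gene without overlap there, beside 9.91% of transcripts. Without the adrenal-marker library the difference was -0.063, and those of the 5 genes other than Dhcr7 and Abca1 lay between -0.0034 and 0.068.

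At P1, 1 pair of Pkd1 libraries carried the spread of Insig1. Insig1 was at 73.8, 83.1 and 182 CPM in Pkd1 KO and 70.6, 64.8 and 129 CPM in Pkd1 WT kidneys. Replicate 3 was highest in both genotypes. KO replicate 3 was also the highest of its group for Idi1 (142 CPM), Fdft1 (131 CPM), Sqle (136 CPM), Lss (69.0 CPM), Dhcr7 (62.7 CPM) and Abca1 (97.7 CPM). WT replicate 3 was the highest of its group for Idi1 (109 CPM) and Abca1 (117 CPM). It was the lowest for Sqle (100.3 CPM), Lss (51.7 CPM) and Dhcr7 (50.4 CPM), and Fdft1 (90.0 CPM) lay in between. The KO effect on Insig1 was 0.35 on the log2 scale (95% interval -0.51 to 1.22). In Pkd2 at P1 the log2 fold changes of the 7 genes ran from -0.054 to 0.10.

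Whether the KO effect differed between P7 and P1 was tested as an interaction over the 18 libraries of a model. It was called for 0 of 7 genes in both models, beside 7.66% of transcripts in Pkd1 and 1.29% in Pkd2, and DESeq2 also called 0. At an unadjusted p under 0.05 there were 2 in Pkd1 (Sqle and Lss), beside 26.5% of transcripts, and 0 in Pkd2, beside 15.5%. In Pkd1, Sqle had a difference of -0.46 (95% interval -0.83 to -0.088, edgeR's adjusted p = 0.11), Lss -0.39 (-0.76 to -0.026, edgeR's adjusted p = 0.16) and Insig1 -0.57 (-1.41 to 0.28). The Insig1 value rested on single P1 libraries, since it was -0.042 without Pkd1 KO P1 replicate 3 and -0.95 without Pkd1 WT P1 replicate 3, and it passed in 0 of the 12 fits without 1 library. Without the adrenal-marker library these differences were -0.38 for Sqle, -0.41 for Lss and -0.49 for Insig1. Y-linked counts were present in 0 of 3 KO and 2 of 3 WT libraries of Pkd1 P1. At Pkd1 P7 they were present in 3 of 3 KO and 0 of 3 WT libraries, so sex and genotype are mixed in this test. With the replicate number as a block, Insig1 passed with -0.53 (edgeR's adjusted p = 0.044), and without Pkd1 KO P7 replicate 3 Sqle passed with -0.61 (edgeR's adjusted p = 0.029). Between the models, the difference of the KO effects at P7 passed for 0 of 7 genes, beside 0% of 12343 transcripts, in edgeR's test and for 0 of 7 by DESeq2. At an unadjusted p under 0.05 these numbers were 0 of 7 genes and 17.2% of transcripts. The largest such differences, Pkd1 minus Pkd2, were -0.43 for Insig1 (95% interval -0.86 to 0.0045) and 0.34 for Fdft1 (-0.020 to 0.70), or -0.43 and 0.33 without the adrenal-marker libraries.

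Postnatal age was compared within WT kidneys. From P1 to P7 in WT kidneys, 6 of 7 genes had lower fitted levels in each model, and Abca1 was the exception in both. The median log2 change of the 7 genes was -0.23 in Pkd1 WT and -0.31 in Pkd2 WT kidneys, beside 0.0062 and 0.0089 over all transcripts. In edgeR's test 0 of 7 genes passed in Pkd1 WT (25.8% of transcripts called, and 0 genes by DESeq2) and 1 of 7 in Pkd2 WT kidneys (26.7% called). At an unadjusted p under 0.05 there were 4 of 7 genes in Pkd1 and 5 of 7 in Pkd2, beside 38.3% and 38.4% of transcripts. In the fit that averaged both models, added after the data were seen, 3 of 7 genes passed, Insig1, Sqle and Idi1, all lower at P7. That share is like the 43.3% of all transcripts that were called in the same fit.

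Cell type markers and Y-linked counts moved with age as well. From P1 to P7 the proximal tubule sum went from 2492 to 2959 CPM up to 5776 to 7850 CPM in Pkd1 WT kidneys, and from 2501 to 4451 CPM up to 6377 to 8286 CPM in Pkd2 WT kidneys. The collecting duct sum went from 805 to 986 CPM up to 1372 to 1530 CPM in Pkd1, and from 1073 to 1569 CPM to 1418 to 1678 CPM in Pkd2, where the days overlapped. Their part in the age differences was not tested. Y-linked counts were present in 2 of 3 libraries at P1, 3 of 3 at P3 and 0 of 3 at P7 in Pkd1 WT kidneys, and in 1, 1 and 2 of 3 in Pkd2 WT kidneys. Sex and age therefore cannot be told apart between P3 and P7 in Pkd1 and are partly mixed between P1 and P7. With Y-linked counts as a covariate in the fit of both models, Insig1 (-0.56, edgeR's adjusted p = 0.0075), Sqle (-0.30, edgeR's adjusted p = 0.013) and Idi1 (-0.33, edgeR's adjusted p = 0.019) also passed.

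Insig1 had the largest estimated decline with age. In WT kidneys it was at 70.6, 64.8 and 129 CPM at P1 and 54.3, 58.6 and 54.8 CPM at P7 in Pkd1, and at 74.5, 74.4 and 89.1 CPM at P1 and 59.0, 61.3 and 42.7 CPM at P7 in Pkd2. In both models all P7 values lay below all P1 values. The log2 change was -0.54 in Pkd2 (standard error 0.15, edgeR's adjusted p = 0.012), -0.66 in Pkd1 (standard error 0.28, edgeR's adjusted p = 0.097) and -0.61 as the mean of both (standard error 0.17, edgeR's adjusted p = 0.0043). The Pkd1 value rested on WT P1 replicate 3 (129 CPM), without which it was -0.28 (edgeR's adjusted p = 0.50). The mean effect passed without each of the 12 libraries in turn, between -0.69 and -0.42. The Pkd2 call was lost without WT P1 replicate 3 (edgeR's adjusted p = 0.065) and without WT P7 replicate 3 (edgeR's adjusted p = 0.054).

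Sqle and Idi1 declined alongside. Sqle was at 125, 110.4 and 100.3 CPM at P1 and 93.5, 94.3 and 84.3 CPM at P7 in Pkd1 WT kidneys, and at 121, 122 and 129 CPM against 109, 112 and 75.0 CPM in Pkd2 WT kidneys. Its mean log2 change was -0.32 (standard error 0.099, edgeR's adjusted p = 0.0092), which passed without each of the 12 libraries in turn. Idi1 was at 93.9, 80.1 and 109 CPM at P1 and 73.7, 79.3 and 71.2 CPM at P7 in Pkd1, and at 106, 103 and 111 CPM against 92.7, 95.5 and 58.6 CPM in Pkd2. Neither gene overlapped between P1 and P7 in either model. The mean log2 change of Idi1 was -0.36 (standard error 0.12, edgeR's adjusted p = 0.013), and it was -0.26 with an edgeR adjusted p of 0.053 without Pkd2 WT P7 replicate 3.

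In all, P1 and P7 values did not overlap for 4 of 7 genes in Pkd1 WT (35.1% of transcripts) and 5 of 7 in Pkd2 WT kidneys (44.3% of transcripts), and every one of these genes was lower at P7. Lss had a mean log2 change of -0.19 (95% interval -0.37 to -0.0048, edgeR's adjusted p = 0.091), Dhcr7 -0.21 (-0.45 to 0.040) and Fdft1 -0.15 (-0.34 to 0.045). Without the adrenal-marker libraries Dhcr7 passed as well, at the same size of -0.21 (edgeR's adjusted p = 0.023). Abca1 had a mean log2 change of 0.24 (-0.22 to 0.70).

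The steps from P1 to P3 and from P3 to P7 gave no call for the 7 genes in either model, by edgeR or DESeq2, beside 0.439% and 1.43% of transcripts from P1 to P3, and 16.3% and 27.1% from P3 to P7, in Pkd1 and Pkd2 WT kidneys. At an unadjusted p under 0.05 there were 3 and 1 genes from P1 to P3 (15.8% and 19.5% of transcripts) and 0 and 2 genes from P3 to P7 (31.1% and 38.4%). The mean of both models gave 0 calls by edgeR for each step as well, beside 7.83% and 34.7% of transcripts. DESeq2 called Fdft1 from P1 to P3 (log2 change -0.28), and the share of all transcripts that it called is not given. Values did not overlap between P1 and P3 for 2 of 7 genes in Pkd1 (23.1% of transcripts) and 4 of 7 in Pkd2 (20.4%), all lower at P3. Between P3 and P7 this held for 1 gene in Pkd1, Fdft1 (32.4%), and 1 in Pkd2, Insig1 (37.6%). Fdft1 had its lowest WT levels at P3 in Pkd1, with 67.5, 72.5 and 62.4 CPM between 92.3, 81.9 and 90.0 CPM at P1 and 80.3, 73.3 and 96.7 CPM at P7. Its P3 values lay below all values of the other days. Without the adrenal-marker libraries, Abca1 was higher at P7 than at P3 in Pkd2 WT kidneys, by 0.88 on the log2 scale (edgeR's adjusted p = 0.020), where the estimate with all libraries was 0.32 (edgeR's adjusted p = 0.47).

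**Figure D4:**
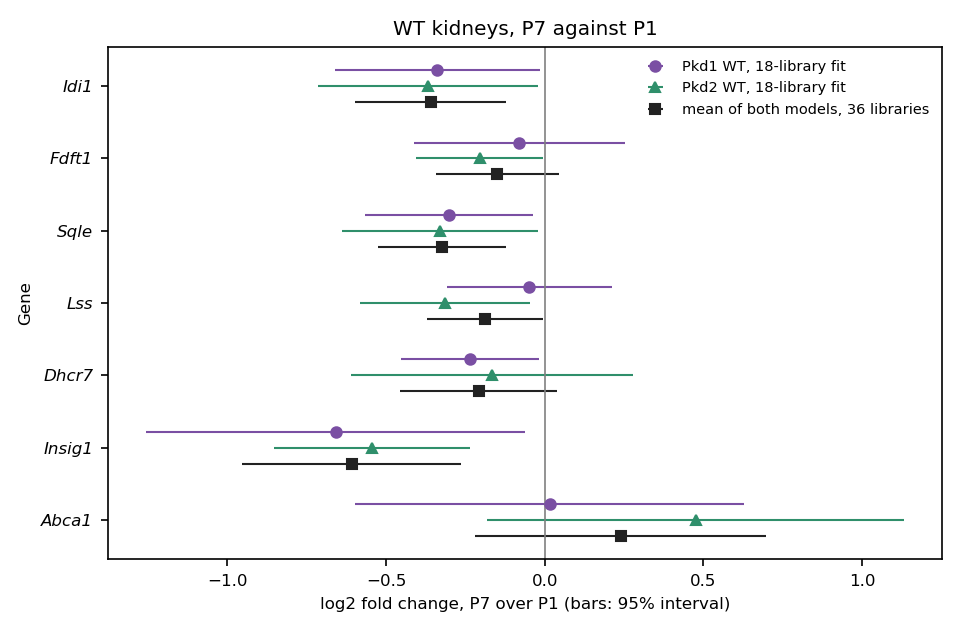
Log2 fold change of P7 over P1 in WT kidneys for the 7 measured genes, with 95% intervals as bars, in Pkd1 (circles), Pkd2 (triangles) and as the mean of both models (squares). Only Abca1 lies above 0, and the mean intervals of Idi1, Sqle, Lss and Insig1 lie below 0.

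A single Pkd2 WT library at P7, replicate 3, was the lowest of its group for Idi1 (58.6 CPM), Fdft1 (72.1 CPM), Sqle (75.0 CPM), Lss (48.4 CPM), Dhcr7 (41.0 CPM) and Insig1 (42.7 CPM), and the highest for Abca1 (115.5 CPM). Its adrenal marker sum was within the range of the other libraries. It had 5 Y-linked counts, against 4143 and 4887 in replicates 1 and 2 of its group. All 3 Pkd2 KO libraries of P7 carried Y-linked counts. What set this library apart was not tested.

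Joint movement of the enzymes and Insig1 was also seen across libraries. Over 36 libraries, Pearson's r of log2(CPM + 1) for the 15 pairs among the 5 enzymes and Insig1 ran from 0.15 to 0.86 with a median of 0.47. Without the 3 adrenal-marker libraries it ran from 0.32 to 0.86 with a median of 0.61. The closest pairs were Idi1 with Insig1 (0.86) and Idi1 with Sqle (0.84). Dhcr7 changed most between these sets, from 0.15 to 0.46 with its partners over 36 libraries to 0.55 to 0.74 over 33. Abca1 had r between -0.38 and 0.026 with the other genes over 36 libraries and between -0.44 and 0.059 over 33. The points share day, library and depth, and these values describe them without a test.

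When all 12343 transcripts tested in both models were ranked by r over 36 libraries, the 2 nearest to each gene included Msmo1, another enzyme of the pathway, for Idi1 (0.85), Rad23b for Sqle (0.83), Naca for Lss (0.71) and Hnrnpdl for Insig1 (0.81). Fdft1 was nearest to Otub1 (0.86) and Vdac2 (0.81). Abca1 was nearest to Abcg1 (0.70), a cholesterol exporter that LXR also induces, and Arrdc3 (0.70). Dhcr7 was nearest to Lonp1 (0.81) and Jph4 (0.77), values that were 0.46 and 0.45 without the adrenal-marker libraries, while those of the other genes lay between 0.67 and 0.86 in the 33 libraries.

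Other genes of the pathway were grouped into lists by role. Of 15 sterol synthesis enzymes outside the 8 genes, 13 were tested, and from P1 to P7 in each model 3 passed as lower and 1 as higher, beside 25.8% and 26.7% of all transcripts called.

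At P7, 1 of the 13 enzymes passed in Pkd1 (13.7% of all transcripts) and 0 in Pkd2 (13.9%). Nsdhl, which removes a methyl carbon from the sterol ring, was at 42.0, 40.4 and 48.5 CPM in Pkd1 KO and 59.0, 58.5 and 68.0 CPM in Pkd1 WT kidneys, a log2 fold change of -0.50 (edgeR's adjusted p = 0.038). Without WT replicate 1 or any 1 of the KO libraries edgeR's adjusted p was between 0.051 and 0.14. The median log2 fold change of the 13 was -0.21 in Pkd1 and -0.13 in Pkd2, beside -0.0055 and 0.0015 over all transcripts. In the mean of both models 6 of 13 passed, beside 39.5% of transcripts. Of these, 5 were lower in KO, among them Pmvk (-0.69), Nsdhl (-0.35), Ebp (-0.25) and Acat2 (-0.21), and Lbr was higher (0.29). Pmvk, Ebp, Acat2 and Lbr were named after their values were seen. Unlike Nsdhl, Ebp, Acat2 and Lbr with 1 row each, Pmvk has 2 RefSeq rows. Its tested row averaged 49.0 counts and reached at most 73. The Pmvk value therefore covers only reads that HTSeq assigned to that row, and whether the enzyme's whole expression changed was not tested.

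Among the regulators, a sterol carrier was lowered in Pkd1 KO. Of 11 genes of sterol sensing and SREBP processing, 7 were tested, and 2 were called in Pkd1 KO, Stard4 among them, and 0 in Pkd2 KO at P7, beside 13.7% and 13.9% of all transcripts. Srebf2 had log2 fold changes of -0.15 in Pkd1 (95% interval -0.54 to 0.24) and 0.10 in Pkd2 (-0.17 to 0.37), and Srebf1 of -0.081 (-0.31 to 0.15) and -0.054 (-0.19 to 0.080). Insig2 was under the count filter. Stard4, a soluble carrier that moves cholesterol between membranes and an SREBP2 target, was at 17.2, 18.3 and 32.5 CPM in Pkd1 KO and 76.7, 85.9 and 50.1 CPM in Pkd1 WT kidneys. The groups did not overlap.

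The log2 fold change of Stard4 in Pkd1 was -1.64 (standard error 0.29, edgeR's adjusted p = 0.014), and edgeR's adjusted p was 0.059 without WT replicate 1 and 0.069 without KO replicate 2. In Pkd2 it was at 63.8, 68.2 and 54.5 CPM in KO and 86.3, 86.6 and 57.6 CPM in WT kidneys, a log2 fold change of -0.31 (95% interval -0.68 to 0.067). The difference between the models was -1.32 (edgeR's adjusted p = 0.15).

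Of 10 genes of sterol uptake and lysosomal exit, 8 were tested. At P7, 0 were called in Pkd1 and 1 in Pkd2, beside 13.7% and 13.9% of all transcripts. The call in Pkd2 was Lrp1, an endocytic receptor (log2 fold change 0.24, edgeR's adjusted p = 0.042). It was at 583, 642 and 629 CPM in Pkd2 KO and 510.0, 545 and 516 CPM in Pkd2 WT kidneys. It passed without KO replicate 1 and in none of the other 5 such fits (edgeR's adjusted p = 0.063 to 0.15). In Pkd1 its log2 fold change was -0.23 (95% interval -0.55 to 0.091). Of 13 genes of efflux, storage and the LXR pathway, 9 were tested. At P7, 1 was called in each model, beside 13.7% of all transcripts in Pkd1 and 13.9% in Pkd2. Nceh1, which hydrolyses stored cholesterol esters, was at 92.2, 55.0 and 81.7 CPM in Pkd1 KO and 122, 135 and 125 CPM in Pkd1 WT kidneys. Its log2 fold change was -0.74 in Pkd1 (edgeR's adjusted p = 0.035) and -0.41 in Pkd2 (edgeR's adjusted p = 0.031). Without WT replicate 1, WT replicate 2 or KO replicate 2 the call was lost in both models, as it was without KO replicate 3 in Pkd1 and KO replicate 1 in Pkd2 (edgeR's adjusted p = 0.069 to 0.12).

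**Figure D5:**
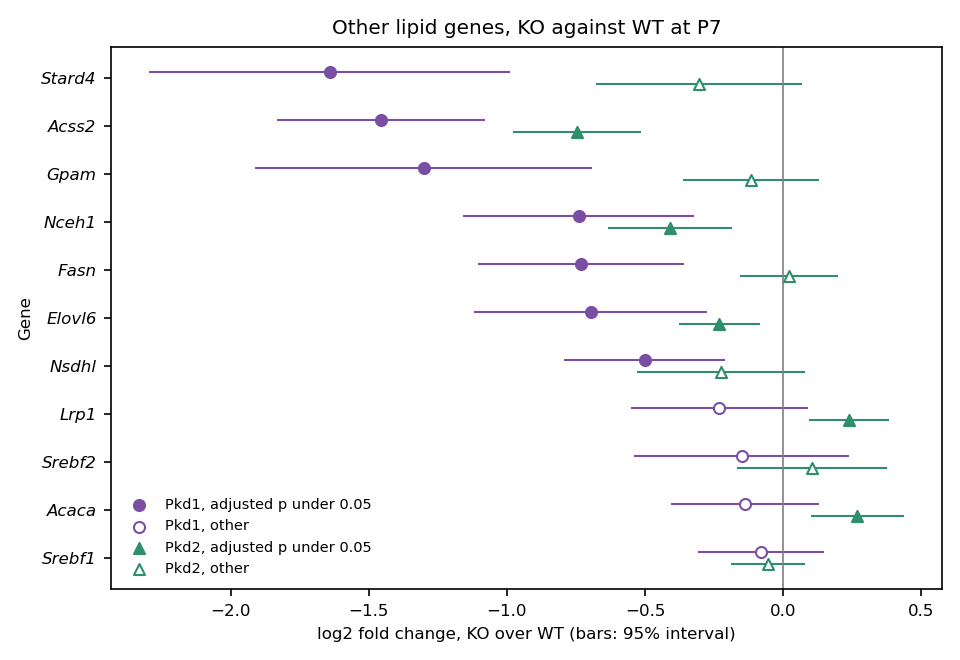
Log2 fold change of KO over WT at P7 for sterol and fatty acid genes outside the 8, with 95% intervals as bars, in Pkd1 (circles) and Pkd2 (triangles). Filled points were called by edgeR (adjusted p under 0.05), and the lowest are Stard4 at -1.64 and Acss2 at -1.46 in Pkd1.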

How the data were processed

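Whole-kidney RNA-seq was analysed. Per the labels, the authors processed reads with CASAVA 1.8.2, mapped them to mm10 with TopHat2 2.1.0 and counted them with HTSeq, and the deposited table holds raw counts per RefSeq transcript. HTSeq with default options discards reads shared between features, so transcripts of genes with several isoforms lose reads. Rows were paired with symbols through RefSeq GRCm38.p6. The 8 genes, the other gene lists and the tests were chosen with earlier results of these data known.

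A transcript entered a model's tests if 3 or more of its 18 libraries had 10 counts or more. Tests used edgeR 4.0.16 in R 4.3.3 (quasi-likelihood test, TMM factors, Benjamini-Hochberg adjustment at 0.05), per day for KO against WT and over 18 libraries for days. Standard errors are the log2 fold change over the square root of F, and 95% intervals use the moderated degrees of freedom. Shares of transcripts called are edgeR's throughout, and none is given for DESeq2. Alternatives were DESeq2 1.42.0, RLE factors, TMM over 36 libraries, no filter, 1 fit per model, a replicate block, GC and length offsets, a Y-linked covariate, a minimum of 2-fold, leaving out libraries, and fits of 36 libraries. Other named genes were list genes called at P7, Srebf1, Srebf2, Insig2, and the 2 most correlated transcripts per gene, and some genes that this rule names are not reported here. Replicate numbers come from the labels, which do not say what they share. Deviations of same-numbered libraries correlated above 0.1 in every pair only for Pkd1 P1 (r = 0.42, 0.30 and 0.62), as a hint from the data. Counts differed between replicates by more than sampling noise. The labels do not say whether replicates are separate animals, so p-values measure the spread between these samples. The steps were tested on simulated data (tables and plots by Python 3.11.15 with pandas 2.3.3).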

Additional observations from a re-analysis of the deposited data

Results flagged for a closer look

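In Pkd1, edgeR's interaction test of the KO effect at P7 against P1 called 4 of 9 fatty acid genes, 2 of 7 sterol sensing genes and 2 of 13 sterol synthesis enzymes, all lower, beside 7.66% of all transcripts. The differences on the log2 scale were -1.62 for Stard4 (edgeR's adjusted p = 0.0095), -1.53 for Acss2 (0.0042), -1.20 for Gpam (0.032), -0.69 for Fasn (0.027) and -0.63 for Elovl6 (0.048). One of the enzymes, named after its values were seen, was Acat2 (-0.47, edgeR's adjusted p = 0.0498), called in 2 of the 12 fits without 1 library. None of the 7 measured genes of the main set met this test. Leaving out each of the 12 libraries of P1 and P7 in turn, Stard4 and Acss2 passed 12 times each, Gpam 5, Fasn 4 and Elovl6 3 times. Y-linked counts marked 3 of 3 KO and 0 of 3 WT libraries of Pkd1 P7, and 0 of 3 KO and 2 of 3 WT libraries of Pkd1 P1. Their part in these differences cannot be told apart from genotype.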

How the results depend on the processing

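The 7 measured genes had at least 374 counts in every library, and 3 libraries a group limit all intervals. Of the alternative values for the KO effects of the 7 genes at 3 days in 2 models, 518 kept their direction and their side of the threshold, 68 had the opposite sign without a call on either side, and 2 passed (Abca1 in Pkd1 at P3 by DESeq2, and Fdft1 in Pkd1 at P7 without WT replicate 3). The cause was not tested.

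The number of the 7 genes called changed as follows. For KO against WT it was 1 in place of 0 by DESeq2 in Pkd1 at P3 (Abca1), 0 to 1 without single libraries in Pkd1 at P7 (Fdft1 without WT replicate 3) and 0 to 1 in the mean of both models at P7. For the change of the KO effect from P1 to P7 in Pkd1 it was 0 to 1 without single libraries (Sqle without KO P7 replicate 3). For WT P7 against P1 it was 1 in Pkd1 with GC and length offsets (Dhcr7, -0.29), and 0 to 1 without single libraries in Pkd2 (0 without WT P1 replicate 3 or WT P7 replicate 3). In the mean of both models it was 3 in the main fit. Dhcr7 was added there without the adrenal-marker libraries, and Idi1 was lost without Pkd2 WT P7 replicate 3. For WT P7 against P3 in Pkd2 it was 1 without the adrenal-marker libraries (Abca1) and 0 to 1 without single libraries (Dhcr7 at -0.68 or -0.67 without WT P3 replicate 1 or 3, Abca1 at 0.88 without WT P3 replicate 2). For the same step in the mean of both models it was 0 to 1 (Dhcr7 at -0.33 or -0.32 without Pkd2 WT P3 replicate 1 or 3), and for WT P3 against P1 it was 1 by DESeq2 (Fdft1).

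With the replicate number as a block, the number called changed for the Pkd1 interaction alone, to 1 of 7 (Insig1, -0.53). Deviations of same-numbered KO and WT libraries correlated between -0.23 and 0.62 over 18 pairs and above 0.1 in 6 of them, and 7 KO libraries correlated best with the WT library of their own number.

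KO effects that took the opposite sign, all of them uncalled, were these. With TMM factors over 36 libraries, Idi1 was at 0.0056 in Pkd1 at P7, Insig1 at -0.0020 in Pkd1 at P3, and Idi1, Fdft1 and Insig1 at 0.00050, 0.0025 and 0.0024 in Pkd2 at P3. With RLE factors, Idi1 was at 0.0022 in Pkd1 at P7, and Fdft1 and Insig1 at 0.00097 and 0.00094 in Pkd2 at P3. With GC and length offsets, Idi1 was at 0.064 in Pkd1 at P3, Abca1 at 0.13 in Pkd1 at P7, Sqle at -0.0051 in Pkd2 at P3 and Fdft1 at -0.0049 in Pkd2 at P7. With the Y-linked covariate in Pkd2, Idi1 and Abca1 were at 0.038 and -0.089 at P1, Idi1, Fdft1 and Insig1 at 0.051, 0.0086 and 0.046 at P3, and Fdft1 and Sqle at -0.013 and -0.060 at P7. In Pkd1 this covariate rests on the WT P1 libraries alone, and it moved the P7 values of Idi1 to -0.35, Insig1 to -0.83 and Fdft1 to 0.17, and the interaction of Insig1 to -1.63, all uncalled. In the mean of both models at P7 it gave -0.11 for Idi1, -0.16 for Insig1 and 0.22 for Abca1. GC and length offsets moved Lss in Pkd1 at P7 to -0.011. DESeq2 gave -0.0069 and -0.0080 for Fdft1 and Sqle in Pkd2 at P7.

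Without single libraries, KO effects spanned 0 in the following cases. In Pkd1 at P1, Abca1 ran from -0.62 to 0.072, Fdft1 from -0.11 to 0.29, Dhcr7 from -0.031 to 0.17 and Insig1 from -0.17 to 0.74. In Pkd1 at P3, Idi1 ran from -0.10 to 0.063, Sqle from -0.11 to 0.047, Insig1 from -0.057 to 0.15, Fdft1 from -0.028 to 0.15 and Lss from -0.17 to 0.019. In Pkd1 at P7, Idi1 ran from -0.044 to 0.036 and Abca1 from -0.48 to 0.056. In Pkd2 at P1, Insig1 ran from -0.056 to 0.12, Abca1 from -0.026 to 0.19, Idi1 from -0.18 to 0.14, Fdft1 from -0.095 to 0.072 and Sqle from -0.050 to 0.23. In Pkd2 at P3, Insig1 ran from -0.13 to 0.11, Fdft1 from -0.041 to 0.053, Sqle from -0.035 to 0.072, Abca1 from -0.41 to 0.42 and Idi1 from -0.040 to 0.033. In Pkd2 at P7, Abca1 ran from -0.052 to 0.41, Idi1 from -0.14 to 0.17, Fdft1 from -0.10 to 0.061, Sqle from -0.16 to 0.10, Dhcr7 from -0.12 to 0.13 and Lss from -0.17 to 0.047.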

Other observations

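Genes of fatty acid synthesis, which SREBP1 controls, were the other lipid group examined. Of 11, 9 were tested in Pkd1 and 10 in Pkd2. At P7, 4 of 9 were lower in Pkd1 KO and 0 higher, beside 13.7% of all transcripts called, and in Pkd2 KO 2 of 10 were lower and 1 higher, beside 13.9%. Acss2, which makes acetyl-CoA from acetate, was at 35.3, 24.1 and 35.4 CPM in Pkd1 KO and 89.3, 81.0 and 90.0 CPM in Pkd1 WT kidneys at P7. In Pkd2 it was at 50.01, 50.5 and 59.4 CPM in KO and 90.5, 97.2 and 80.6 CPM in WT kidneys. The genotypes did not overlap in either model. Its log2 fold changes were -1.46 (edgeR's adjusted p = 0.0052) and -0.75 (edgeR's adjusted p = 0.0038), and both were called without each of the 6 libraries in turn. At P1, Acss2 was at 40.0 to 54.0 CPM in Pkd1 KO and 36.8 to 54.8 CPM in Pkd1 WT kidneys. In WT kidneys it rose from P1 to P7, by 0.95 in Pkd1 (edgeR's adjusted p = 0.0016) and 0.84 in Pkd2 (edgeR's adjusted p = 9.1e-05).

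Fasn, the fatty acid synthase, fell in Pkd1 KO at P7, to 127, 137 and 177 CPM against 272, 257 and 203 CPM in WT kidneys (log2 fold change -0.73, edgeR's adjusted p = 0.028). The call was lost without WT replicate 1 or 2 or KO replicate 1 or 2 (edgeR's adjusted p = 0.055 to 0.11). In Pkd2 its log2 fold change was 0.022 (95% interval -0.16 to 0.20). Gpam, the first enzyme of glycerolipid synthesis, was lower in Pkd1 KO (-1.30, edgeR's adjusted p = 0.022), as was Elovl6, which elongates fatty acids (-0.70, edgeR's adjusted p = 0.043). Elovl6 was also lower in Pkd2 KO (-0.23, edgeR's adjusted p = 0.048), and Acaca, the acetyl-CoA carboxylase, was higher there (0.27, edgeR's adjusted p = 0.048). Acaca was called in 0 of the 6 fits without 1 library and Elovl6 in Pkd2 in 1 of 6 (without WT replicate 2). In Pkd1, Gpam and Elovl6 passed in 2 of 6 each. Y-linked counts marked 3 of 3 KO and 0 of 3 WT libraries of Pkd1 P7, so sex and genotype cannot be told apart for the 4 Pkd1 calls. Between the models, 0 of 9 genes differed by edgeR's test, as did 0 of all 12343 transcripts (17.2% at an unadjusted p under 0.05).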
